A study of Mus musculus with 13 samples.

Results

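Basophils and mast cells of the mouse lung were examined as the barcodes of a single-cell RNA matrix that met a rule on 5 genes. Of 37344 barcodes, 33618 had at most 10% of their UMIs from mitochondrial genes, where a UMI, a unique molecular identifier, marks 1 captured RNA molecule. Of these, 98 had at least 2 UMIs summed over Mcpt8, Ms4a2, Fcer1a, Cpa3 and Cd200r3, at least 2 of these 5 genes detected, and no UMI of Cd79a, Cd3e or C1qa. The 3 genes that had to be absent mark B cells, T cells and macrophages. By marker genes 59 of the 98 cells were basophil-like, with Mcpt8 and at most 1 mast cell gene, 3 were mast-like, and 36 had no Mcpt8 and at most 1 mast cell gene. The whole set is called basophil- and mast-like cells after the rule.

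The labels describe 13 lung samples. Of these, 1 each was named asthma, control, PPE-emphysema and PPE-recovery, where PPE is porcine pancreatic elastase, and 3 each were named acute injury, con and emphysema. According to the study, the asthma model was made by sensitization and challenge with ovalbumin, the emphysema model by weekly instillations of elastase, and the recovery model by a single instillation with a longer interval before the lungs were taken. The study used C57BL/6 mice. The cells were obtained by protease digestion of whole lungs. The barcodes named 7 libraries by number and no group, so the matrix was treated as 1 sample, no condition was compared with another, and no test was made.

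Libraries 4, 5 and 6 stood apart from libraries 1, 2, 3 and 7 and went against the lung label. Globin transcripts made up 38.6%, 40.6% and 35.3% of the UMIs in libraries 4, 5 and 6, and at most 0.031% in libraries 1, 2, 3 and 7. Sftpc, the surfactant protein of alveolar type 2 cells, was at 3105, 6586, 9212 and 2674 counts per 1000000 UMIs (CPM) in libraries 1, 2, 3 and 7, and at 0, 0 and 0.066 CPM in libraries 4, 5 and 6. The defining epithelial transcripts of the lung were thus at or near 0 in 3 of the 7 libraries, and the counts of genes are given with and without them. Of 203 genes whose ratio to the other cells was followed, 8 changed side of a 4-fold limit without these libraries, and 7 of these were globin, red cell or platelet genes. Without them the ratio of Slc18a2 was 1041 in place of 593, and that of Itga2b 77.2 in place of 16.6. In all, 153 barcode sequences occurred in 2 libraries, and 1 of the 98 cells carried such a barcode.

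Basophils are granulocytes of the blood that enter inflamed tissue, while mast cells mature and stay in tissue. Both bind immunoglobulin E through the high-affinity receptor FceRI, whose alpha chain is encoded by Fcer1a, beta chain by Ms4a2 and gamma chain by Fcer1g, and both release histamine, lipid mediators and cytokines when antigen cross-links it. In mice the granule protease Mcpt8 marks basophils, whereas mast cells depend on the stem cell factor receptor Kit and store chymases and tryptases. Basophils resident in the lung have been described as a source of cytokines and growth factors that act on alveolar macrophages.

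The transcription factor Gata2 is required for both lineages and binds DNA with a GATA core, so the RefSeq promoters (build GRCm38.p6) of the 5 selection genes were searched for the letters AGATAA or TGATAA on both strands in the 250 bases before the transcript start. Of these 5 promoters, 4 held a match, against 16.6% of all 32851 promoters searched over the same length, and the Mcpt8 promoter held none. Ms4a2 had 3 matches at chr19:11623720-11623969 (minus strand), Cd200r3 had 2 at chr16:44943428-44943677 (plus strand), Fcer1a had 1 at chr1:173227230-173227479 (minus strand) and Cpa3 had 1 at chr3:20242182-20242431 (minus strand). The 4 promoters are printed 5′ to 3′ on the strand of the gene, with the matches in capitals, as the promoters of selection genes that held a match.
Ms4a2: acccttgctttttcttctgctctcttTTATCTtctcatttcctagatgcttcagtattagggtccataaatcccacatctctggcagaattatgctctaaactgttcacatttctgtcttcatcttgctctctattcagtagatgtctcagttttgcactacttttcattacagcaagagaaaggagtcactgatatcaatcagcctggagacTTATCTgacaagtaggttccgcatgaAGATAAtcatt
Fcer1a: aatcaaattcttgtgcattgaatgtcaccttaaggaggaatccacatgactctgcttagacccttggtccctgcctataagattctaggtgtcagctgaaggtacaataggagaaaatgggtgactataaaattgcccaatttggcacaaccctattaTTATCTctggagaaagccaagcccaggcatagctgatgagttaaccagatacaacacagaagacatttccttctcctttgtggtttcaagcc
Cpa3: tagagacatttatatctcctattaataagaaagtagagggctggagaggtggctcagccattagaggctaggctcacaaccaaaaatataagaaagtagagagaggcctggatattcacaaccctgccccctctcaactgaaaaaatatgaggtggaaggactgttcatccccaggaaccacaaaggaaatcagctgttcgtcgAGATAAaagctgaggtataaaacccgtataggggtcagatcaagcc
Cd200r3: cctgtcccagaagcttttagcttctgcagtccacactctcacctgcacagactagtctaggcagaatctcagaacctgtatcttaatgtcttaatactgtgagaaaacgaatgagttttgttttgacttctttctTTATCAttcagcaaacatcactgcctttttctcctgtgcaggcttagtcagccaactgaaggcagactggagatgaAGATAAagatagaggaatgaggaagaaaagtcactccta
The match nearest to the start began 11 bases before it in Ms4a2, 39 in Cd200r3, 46 in Cpa3 and 92 in Fcer1a. Over the 20 leading genes described below that were not used by the rule, 5 of 22 promoters (22.7%) held a match. Lists ranged from none of 10 promoters of exocytosis genes and 9.52% for lineage transcription factors to 54.5% of 11 promoters for mast cell markers. The share was 40% for IgE receptor signaling, which includes Ms4a2 and Fcer1a, while the mast cell markers include no selection gene. Immediate early and progenitor genes likewise had none. A match describes the letters only and is not a measured site.

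The cells were rare in every library. Libraries 1 to 7 held 38, 24, 16, 1, 7, 3 and 9 of them. The share was 0.792% of the barcodes in library 1 (exact 95% binomial interval 0.561 to 1.09), 0.315% in library 2 (0.202 to 0.468), 0.312% in library 3 (0.178 to 0.506) and 0.273% in library 7 (0.125 to 0.517). In libraries 4, 5 and 6 it was 0.0334% (0.000846 to 0.186), 0.143% (0.0576 to 0.295) and 0.0615% (0.0127 to 0.179). The interval of library 1 lay above that of every other library, and the shares of libraries 2, 3 and 7 could not be told apart at this depth. As a group, libraries 1, 2, 3 and 7 held 87 cells (0.417%) and libraries 4, 5 and 6 held 11 (0.0862%). All intervals here cover counting error only.

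**Figure D1:**
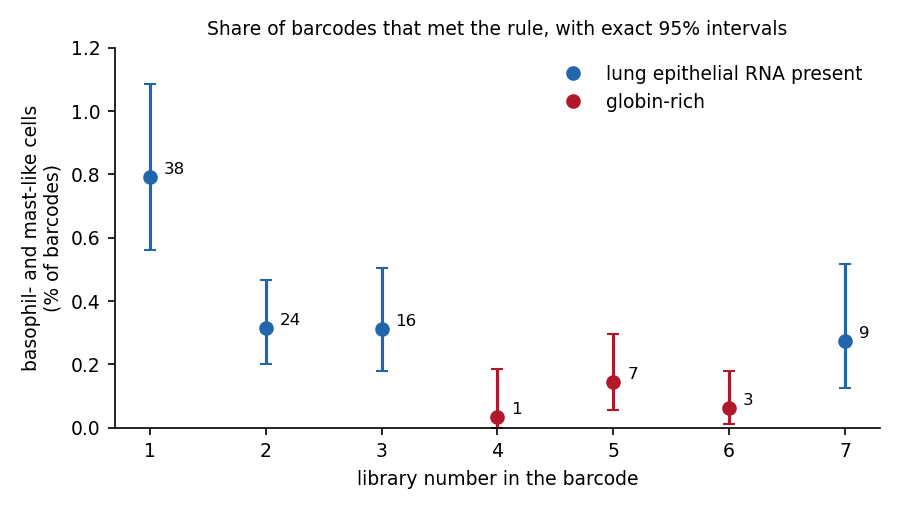
Share of barcodes with at most 10% mitochondrial UMIs that met the rule (y axis, percent) in each of the 7 libraries (x axis), with exact 95% binomial intervals and the number of cells beside each point. Library 1 reached 0.792% and the globin-rich libraries 4, 5 and 6 lay between 0.0334% and 0.143%.

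The median was 4369 UMIs and 1538 genes per cell, against 6699 UMIs and 2081 genes in the other cells. In libraries 1, 2, 3 and 7 the cells were shallower than the other cells, at 4128 against 7575 UMIs and 1500.0 against 2598 genes. In libraries 4, 5 and 6 they had fewer UMIs but more genes, at 5003 against 6134 UMIs and 1825 against 1624 genes. The deepest cell had 25420 UMIs and the shallowest 1573, and the 98 cells summed to 536341 UMIs. Their median mitochondrial share was 2.71% against 4.68% in libraries 1, 2, 3 and 7, and 2.80% against 2.25% in libraries 4, 5 and 6.

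The 5 selection genes chose the cells, so their levels are a description. In GRCm38, Mcpt8 lies at chr14:56082166-56085273, Ms4a2 at chr19:11615523-11623719, Fcer1a at chr1:173221284-173227214, Cpa3 at chr3:20215620-20242181 and Cd200r3 at chr16:44943678-44981380. Cd200r3, an activating member of the CD200 receptor family, was detected in 93 of 98 cells at 781 CPM. Fcer1a was detected in 90 cells at 695 CPM, Ms4a2 in 89 cells at 579.9 CPM, and Cpa3, the mast cell carboxypeptidase that mouse basophils also carry, in 79 cells at 774 CPM. Mcpt8 was detected in 61 cells at 772 CPM. All 5 genes were found in 45 cells, 4 in 35, 3 in 11 and 2 in 7. Of all UMIs in the matrix after the mitochondrial limit, the 98 cells held 96.5% for Mcpt8, 92.6% for Ms4a2, 88.8% for Fcer1a, 88.1% for Cpa3 and 65.9% for Cd200r3.

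Few of the cells lay at the edge of the rule. A single cell was at the limit of 2 UMIs, 5 cells had 3 to 5, and 38 cells had 20 or more, with a highest value of 74. Just outside it, 90 barcodes had a single UMI of these genes and 19 had 2 or more UMIs of 1 gene alone, which was Cd200r3 in 14 of them. A further 6 cells met the rule but held Cd79a, Cd3e or C1qa, 2 for each gene, and 3 were over the mitochondrial limit.

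Both IgE receptor chains were detected in the cells of every library. Ms4a2 stood at 504, 541, 609, 536, 807, 1005 and 659.8 CPM in libraries 1 to 7. Fcer1a stood at 714, 529, 783, 107, 836, 1675 and 718 CPM, and the value of library 4 rests on 1 cell. Mcpt8 varied more, with 893, 496, 746, 0, 346, 67 and 1824 CPM. It was detected in 24 of 38, 15 of 24 and 8 of 16 cells of libraries 1, 2 and 3, and in all 9 cells of library 7. In libraries 5 and 6 it was detected in 4 of 7 and 1 of 3 cells, and in the single cell of library 4 it was not.

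The label was then set against lineage markers. Of the 6 basophil markers, Mcpt8 and Cd200r3 chose the cells. Of the other 4, Gata2, Itga2 and Prss34 were at least 4-fold higher than in the other cells of the same libraries, and Il3ra was at 3.21-fold, where 5.38% of all genes counted were at least 4-fold higher. Gata2 was detected in 94 cells and Itga2, the CD49b antigen of mouse basophils, in 49. Il3ra, the receptor chain for the basophil growth factor IL-3, was detected in 35 cells, and Prss34, a second basophil granule protease, in 13. Prss34 summed to 66 UMIs, 89.2% of those in the whole matrix, and 25.8% came from 1 cell. Among 9 mast cell markers (Kit, Cma1, Mcpt4, Tpsb2, Tpsab1, Mrgprb2, Mcpt1, Mcpt2 and Tpsg1), 92 cells had none, 3 had 1, and 3 had 4 or more. The tryptase Tpsab1 was at 0.

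The 3 mast-like cells carried different proteases. In library 1, a cell of 4480 UMIs had 160 UMIs of Mcpt2, 71 of Cma1 and 12 of Kit, and a cell of 25420 UMIs had 152 of Mcpt2, 77 of Cma1, 47 of Mcpt1 and 27 of Kit. Mcpt1 and Mcpt2 encode the chymases of mucosal mast cells. In library 3, a cell of 2143 UMIs had 105 UMIs of Cma1, 49 of Mcpt4, 31 of Tpsb2, 5 of Mrgprb2 and 3 of Kit, and no Mcpt1 or Mcpt2. Mcpt4, Tpsb2 and the cationic peptide receptor Mrgprb2 belong to connective tissue mast cells. Hdc, the enzyme that makes histamine, had 18 UMIs in this cell and 0 in both cells of library 1.

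Mcpt8 was not absent from the mast-like cells. Both cells of library 1 held it, with 17 and 9 UMIs, while the cell of library 3 had none. Cpa3 was high in all of them, at 38, 50 and 35 UMIs. The cells had no UMI of Ccl3, Ccl4 or Ccl6, although Ccl6 was detected in 57 of the 59 other cells with Mcpt8. Vwf and Aqp1, which mark endothelium, had 44 and 34 UMIs in 1 of the 3 cells, and the part of a second cell in that barcode was not tested. The mitochondrial share of the 3 cells lay between 7.28% and 9.46%, so none was left with a limit of 5%.

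**Figure D2:**
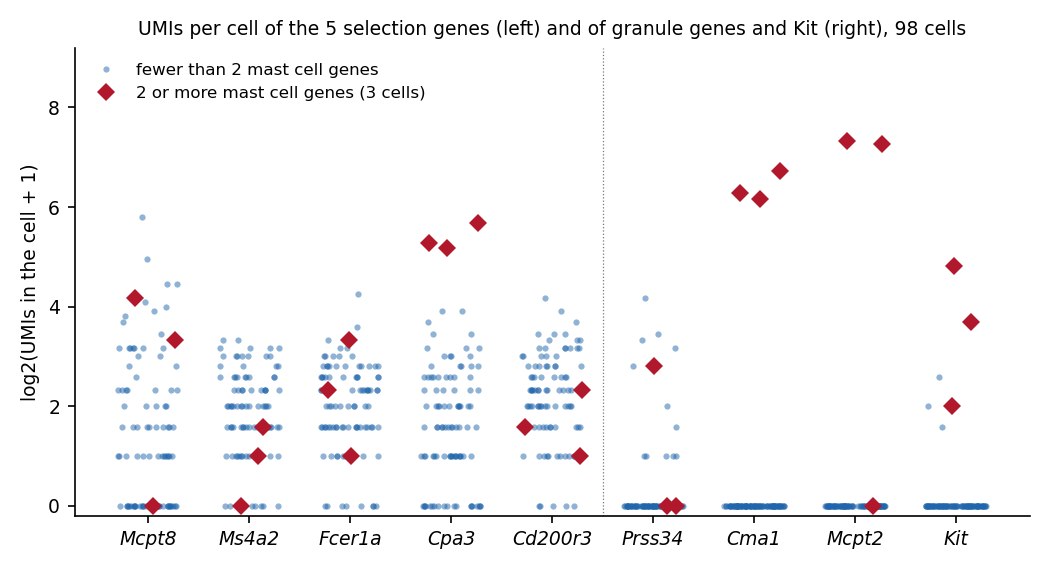
UMIs per cell on a log2(UMIs + 1) scale (y axis) for the 5 selection genes, left of the dotted line, and for Prss34, Cma1, Mcpt2 and Kit, 1 point per cell over all 98 cells, with the 3 mast-like cells as diamonds. Cma1 and Mcpt2 were found in the mast-like cells alone, 3 and 2 of them, while the IgE receptor genes did not separate the 3 from the rest.

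Each gene was next compared with the other cells of the same library. The ratio is the number of UMIs in the 98 cells over the number expected from the CPM of the other cells of each library, and a gene was counted when either number was at least 20. Of 4874 such genes, 262 (5.38%) were at least 4-fold higher and 307 (6.3%) at least 4-fold lower, and the median ratio was 0.896. With libraries 1, 2, 3 and 7 alone the counts were 245 and 284. Since 5 genes picked the cells, genes that go with them had to be high, and no test was made.

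The leading genes ranged from abundant to rare. The 25 of highest ratio among genes detected in at least 20% of the cells included the 5 selection genes, and 18 of the 25 were detected in more than 50 cells. By ratio the first gene not used by the rule was the rare Gm35147, described below, followed by Cyp11a1, the side-chain cleavage enzyme that starts steroid synthesis from cholesterol, at 1065 CPM in 95 cells. The cells held 87.0% of all Cyp11a1 UMIs in the matrix. In the libraries 1 to 7 it was at 1271, 670.4, 1418, 644, 749.8, 1072 and 1223 CPM, so that every library had it at a level within a few-fold of the others. Csrp3, a LIM protein best known from heart muscle, was at 392 CPM in 65 cells (63.6% of all UMIs). Slc18a2, the vesicular transporter that loads histamine and serotonin into granules, was at 406 CPM in 72 cells (40.0% of all UMIs).

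Other leading genes were less abundant. The long non-coding RNA Gm35147 had 26 UMIs in 20 cells, 76.5% of those in the matrix. The metabotropic glutamate receptor Grm6 had 33 UMIs in 24 cells, the serotonin receptor Htr1b 27 UMIs in 20 cells, and Far2, a fatty acyl-CoA reductase, 26 UMIs in 21 cells. Wdr95 had 63 UMIs in 36 cells. Sytl3, an effector of Rab27 in vesicle release, had 153 UMIs in 72 cells with a ratio of 81.3 (95% Poisson interval 68.9 to 95.2). The surface protein Cd7 had a ratio of 53.5 (47.7 to 59.8) and was detected in 80 cells, and the glycerol channel Aqp9 had a ratio of 39.3 (33.0 to 46.3). Ifitm1, an interferon-induced membrane protein, was at 4952 CPM in 97 cells with a ratio of 72.0 (69.3 to 74.8).

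Detection of the genes named here was far above that in B cells. In 1641 B cells of libraries 1, 2, 3 and 7, which had a median of 4536 UMIs, Cyp11a1 was found in 0.427%, Gata2 in 3.53%, Hdc in 2.93%, Il4 in 0.122% and Ccl3 in 1.95%. After thinning each cell to 1000 UMIs, which left out 11 of these B cells and none of the 98, Cyp11a1 was found in 66.3% of the basophil- and mast-like cells and in none of the B cells, Gata2 in 78.6% and 0.798%, and Ccl3 in 83.7% and 0.368%. Thinned Il4 was found in 22.4% and in none of the B cells.

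Histamine synthesis and storage genes were high. Of the 4 genes of this list, 3 were counted and all 3 were at least 4-fold higher, against 5.38% of all genes counted. Hdc was at 2149.8 CPM in 93 cells, with a ratio of 32.4 (30.6 to 34.3). By library it was at 1928, 1109, 4228, 322, 548, 737 and 4677 CPM, lowest in libraries 4, 5 and 6. Slc6a4, the plasma membrane serotonin transporter, had 46 UMIs in 28 cells with a ratio of 6.66 (4.88 to 8.89). Hnmt, which breaks histamine down, was at 0, where 3.88 UMIs were expected.

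Among the eicosanoid enzymes, 7 of 10 were counted, of which 3 were higher and 2 lower, against 5.38% and 6.3% of all genes counted. Alox15, the 12/15-lipoxygenase, had 102 UMIs in 56 cells with a ratio of 42.1 (34.3 to 51.1). Alox5, which with its partner Alox5ap begins leukotriene synthesis, had a ratio of 6.86 (5.66 to 8.25), and Alox5ap was at 1424 CPM in 96 cells with a ratio of 3.47 (3.23 to 3.73). Ptgs2, the inducible cyclooxygenase, was at 809 CPM but in 29 cells alone, and 22.4% of its UMIs came from 1 cell. Ltc4s, which makes leukotriene C4, was low, with 6 UMIs and a ratio of 0.129 (0.0472 to 0.28), and Ptgs1 had 4 UMIs and a ratio of 0.155.

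The cytokine list held both the best-known type 2 cytokine of basophils and several growth factors. Of 18 genes 11 were counted, 6 of them higher and 1, Il18, lower, against 5.38% and 6.3% of all genes counted. Il4 had 76 UMIs in 47 cells, 31.8% of all Il4 UMIs in the matrix. By library it was at 137, 129, 187, 0, 231, 0 and 136 CPM. Il13 had 41 UMIs in 10 cells, with 36.6% from 1 cell. Of the 10 cells with Il13, 3 also had Il4. Il5, Il3, Il9, Il10 and Csf2 were at 0, which allows at most 3 UMIs.

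Over all 98 cells Il6, Csf1, Osm and Hgf were more abundant than Il4, but in libraries 4, 5 and 6 Il6 and Il4 were at the same level, 136 CPM, and Osm was at 50.9 CPM. Il6 was at 1803 CPM in 68 cells, with a ratio of 81.7 (76.7 to 87.0). Csf1, the macrophage growth factor, was at 1637 CPM in 84 cells with a ratio of 58.5 (54.7 to 62.5). Osm, the oncostatin M gene, was at 1572 CPM in 79 cells with a ratio of 23.1 (21.6 to 24.7). Hgf, a growth factor for epithelium, was at 300.2 CPM in 63 cells with a ratio of 21.2 (18.0 to 24.7). Of the 68 cells with Il6, 62 had Csf1 and 62 had Ccl4.

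The chemokines Ccl4 and Ccl3 were the most abundant of the listed cytokines and chemokines over all 98 cells. In libraries 4, 5 and 6 they were at 170 and 458 CPM, below Ccl6 at 5312 and Ccl9 at 2104 CPM. Both lie in the cluster of CC chemokine genes on chromosome 11, Ccl3 at chr11:83647844-83649355 and Ccl4 at chr11:83662584-83664683 (GRCm38). Ccl4 was at 12056 CPM in 85 cells and Ccl3 at 7702 CPM in 91 cells, and 84 cells had both. The 98 cells, 0.292% of the barcodes, held 28.9% of all Ccl4 UMIs and 29.4% of all Ccl3 UMIs. Ccl9 was at 2631 CPM with a ratio of 9.19 (8.71 to 9.68). Ccl6 was at 5208 CPM with a ratio of 2.04 (1.96 to 2.12), and it is also a product of macrophages and other myeloid cells. Ccl1 and Ccl7 were at 0. Of the 8 chemokines 5 were counted and 3 were higher, against 5.38% of all genes counted.

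Set against other leukocytes, several of these levels were far apart. The eosinophils chosen by Ccr3, Prg2, Epx, Prg3 and Il5ra numbered 40, all of them in libraries 1, 2, 3 and 7, so the levels are given for these libraries alone, with 87 basophil- and mast-like cells, 1277 classical monocytes, 1600 neutrophils and 1641 B cells. The eosinophils were shallow, at a median of 1004 UMIs. Il4 was at 142 CPM in the 87 cells and at 113 CPM in the eosinophils, which rests on 10 UMIs there, and it had no UMI in the monocytes or neutrophils. Cyp11a1, Csrp3, Gata2, Hdc and Slc18a2 had no UMI in the eosinophils. Hdc was at 1900.1 CPM in the neutrophils, against 2346 CPM in the basophil- and mast-like cells. Il1b was at 899 CPM here and at 12965 CPM in the neutrophils. Alox15 was at 532 CPM in the eosinophils and at 189 CPM here. The levels also depend on the libraries, since in libraries 4, 5 and 6 Hdc was at 269.5 CPM in the neutrophils and at 560.02 CPM in the 11 cells.

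**Figure D3:**
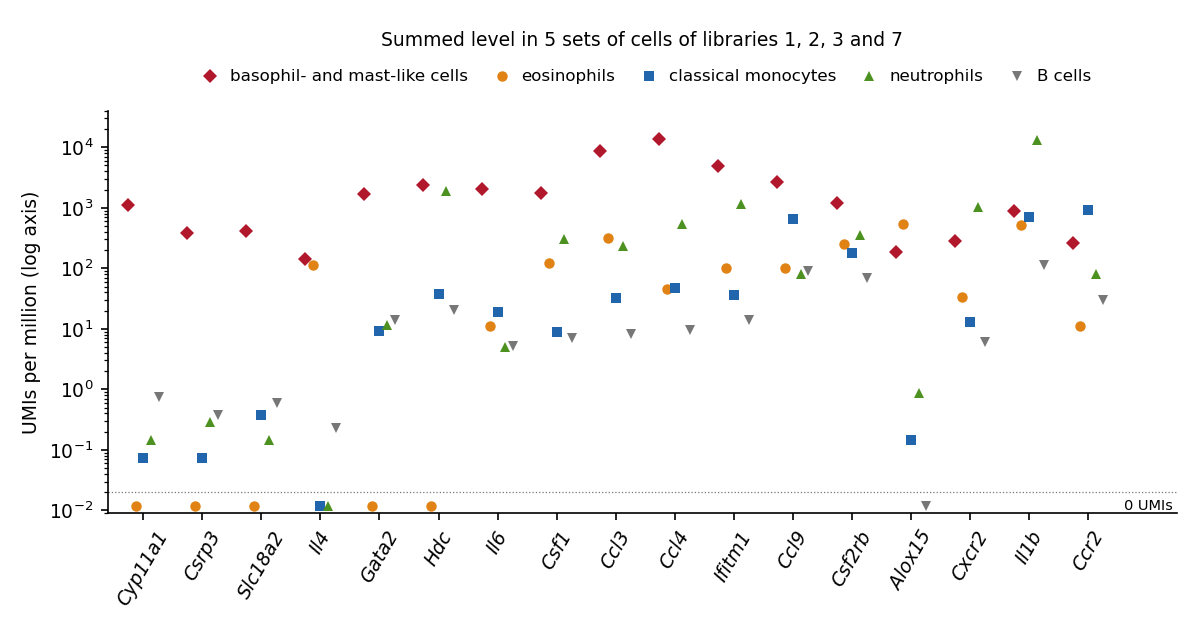
Summed level of 17 genes (x axis) in CPM (y axis, log axis) in the cells of libraries 1, 2, 3 and 7, namely 87 basophil- and mast-like cells, 40 eosinophils, 1277 classical monocytes, 1600 neutrophils and 1641 B cells, with values of 0 below the dotted line. Cyp11a1, Csrp3, Slc18a2, Gata2 and Hdc had no UMI in the eosinophils, while Alox15 was at 532 CPM there.

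The granule list of 15 genes had 10 counted, and all 10 were at least 4-fold higher, against 5.38% of all genes counted. However, 5 of the 10 (Mcpt2, Cma1, Mcpt4, Mcpt1 and Tpsb2) came from the 3 mast-like cells, and Mcpt8 and Cpa3 chose the cells. The others were Prss34, Gzmb and Srgn. Srgn, the proteoglycan that packs granule proteases, was at 4143 CPM in 97 cells with a ratio of 5.55 (5.32 to 5.78). Gzmb, granzyme B, lies with Mcpt8 and the chymases on chromosome 14. It had 368 UMIs in 30 cells, with a ratio of 41.1 (37.0 to 45.5). It was at 819.6, 477, 1380.3 and 524 CPM in libraries 1, 2, 3 and 7, and no cell of libraries 4, 5 and 6 had it. Ctsg had 13 UMIs in 11 cells.

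Of 18 cytokine receptor genes 15 were counted, 5 of them higher and 2 lower, against 5.38% and 6.3% of all genes counted. Csf2rb, the common beta chain of the IL-3, IL-5 and GM-CSF receptors, was at 1218 CPM in 95 cells with a ratio of 7.85 (7.26 to 8.48), and its paralogue Csf2rb2 was at 438 CPM with a ratio of 15.1 (13.2 to 17.1). Reads shared by these near-identical genes could be split between them. Il3ra, the chain that is specific to IL-3, had 45 UMIs and a ratio of 3.21 (2.34 to 4.30). Il18rap was at 548 CPM in 83 cells with a ratio of 33.5 (29.8 to 37.5), and Il18r1 had a ratio of 12.1 (10.2 to 14.3). Il1rl1, the IL-33 receptor ST2, was detected in 48 cells with a ratio of 21.4 (17.3 to 26.1). Il6ra had 5 UMIs and a ratio of 0.11 (0.0357 to 0.256), and Il5ra, Il2ra and Il9r were at 0.

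Of 13 chemoattractant and lipid mediator receptors, 8 were counted, 2 of them higher and 1 lower, against 5.38% and 6.3% of all genes. Cxcr2 was detected in 70 cells with a ratio of 8.32 (7.08 to 9.72), and the complement receptor C3ar1 in 63 cells with a ratio of 8.06 (6.68 to 9.63). Ccr3, the eotaxin receptor, had 18 UMIs in 15 cells at 33.6 CPM, and it was 1 of the genes used to choose the eosinophils. The histamine receptor Hrh4 had 9 UMIs in 9 cells, 47.4% of those in the matrix. Ptgdr2, the prostaglandin D2 receptor of type 2 cells, was at 0.

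Inhibitory receptors were present beside the activating ones. Of 17 genes in this list 13 were counted, 3 higher and 2 lower, against 5.38% and 6.3% of all genes counted. Cd200r3, which chose the cells, was 1 of the 3. Lilr4b was at 2101 CPM in 97 cells with a ratio of 18.8 (17.7 to 19.9) and Lilrb4a at 255 CPM with a ratio of 10.6 (8.93 to 12.6), and reads of these paralogues may be split. Fcgr3, an IgG receptor, had a ratio of 1.75 (1.48 to 2.06). Cd200r1 had 48 UMIs in 32 cells with a ratio of 2.12 (1.57 to 2.82), and Cd200r2 was at 0.

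Downstream of the IgE receptor, most genes were near the level of the other cells. Of 16 genes 15 were counted, 3 were higher and none was lower, against 5.38% and 6.3% of all genes counted. Their median ratio was 1.48. The 3 higher genes were Fcer1a and Ms4a2, which chose the cells, and Lat2, a membrane adaptor of the receptor. Lat2 was at 524 CPM in 89 cells with a ratio of 9.71 (8.61 to 10.9). Fcer1g was at 1587 CPM in all 98 cells with a ratio of 1.48 (1.38 to 1.58). The kinases Lyn and Syk were at ratios of 0.614 (0.469 to 0.788) and 0.638 (0.478 to 0.834).

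Of 11 exocytosis and activation genes, all were counted, 3 were higher and none was lower, against 5.38% and 6.3% of all genes counted. Cd69, an early activation antigen, was at 1374 CPM in 69 cells with a ratio of 33.3 (30.9 to 35.8). Cd63, a granule membrane protein that marks degranulated basophils at the surface, was detected in all 98 cells at the same 1374 CPM, with a ratio of 3.24 (3.01 to 3.49). Unc13d, which primes granules for release, had a ratio of 7.70 (5.90 to 9.87), and the fusion protein Stx3 had a ratio of 4.65 (3.83 to 5.59).

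Among 12 lineage transcription factors, 9 were counted, with 1 higher and 1 lower, against 5.38% and 6.3% of all genes counted. Gata2 was at 1611 CPM with a ratio of 42.7 (39.9 to 45.6). It stood at 1791, 1083, 2139, 751, 1269, 1339.8 and 2174 CPM in libraries 1 to 7. Irf8, which directs monocyte and dendritic cell fates, was the lower gene, with 7 UMIs and a ratio of 0.0617 (0.0248 to 0.127). Cebpa had a ratio of 3.52 (2.98 to 4.15). Gata1 had 12 UMIs in 11 cells.

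Of 8 immediate early genes 4 were at least 4-fold higher, against 5.38% of all genes counted. They were Ier2, Zfp36, Nfkbia, the inhibitor of NF-kB, with a ratio of 8.13 (7.74 to 8.54), and Egr1 with a ratio of 8.004 (7.58 to 8.44). The other 4 did not pass, with ratios of 3.44 for Junb, 2.31 for Dusp1, 1.55 for Fos and 0.851 for Nr4a1. Of 9 progenitor genes 3 were counted and none passed 4-fold, and Mpo and Elane were at 0. Of 8 cell cycle genes 5 were counted and none passed 4-fold. Of the Top2a UMIs, 88.5% came from 1 cell, and all 22 UMIs of Birc5 came from 1 cell.

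At the other end, the 10 genes of lowest ratio were products of alveolar and plasma cells and of macrophages. Sftpd, Cbr2 and Iglc1 were at 0 where 105, 127 and 110.1 UMIs were expected, and C1qa was at 0 by the rule. Sftpc had 42 UMIs against 2497 expected, a ratio of 0.0168 (0.0121 to 0.0227), and Igkc had 20 against 1437. C1qb had 1 UMI and Mmp12, the macrophage elastase, had 3 UMIs against 201 expected. Since the rule left out cells with C1qa or Cd79a, it also favored low values of other macrophage and B lineage genes.

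Markers of other cells were found in some of the 98 cells. At least 2 UMIs over at least 2 genes of a list were found in 39 cells for epithelial genes, 25 for macrophages, 20 for group 2 innate lymphoid cells and 16 for neutrophils. The counts were 11 for erythroid cells, 11 for megakaryocytes or platelets, 7 for endothelium, 7 for dendritic cells, 6 for classical monocytes, 4 for fibroblasts, 3 for B cells and 1 each for T and NK cells. No cell had the eosinophil list, of which Prg2, Epx, Prg3 and Il5ra were at 0. The epithelial list summed to 632 CPM, led by Scgb1a1 at 531 CPM, against 15387 CPM expected. The macrophage list summed to 1370.4 CPM, led by Chil3 at 986 CPM, of which 85.3% came from 1 cell, with C1qc and Marco at 0. The dendritic cell list summed to 968 CPM, led by H2-Aa, of which 90.9% came from 1 cell. The other lists summed to 65.3 CPM for B cells, 39.2 for T cells, 42.9 for NK cells, 319 for classical monocytes, 1296 for neutrophils, 651 for endothelium, 850.2 for fibroblasts, 308 for megakaryocytes or platelets and 278 for innate lymphoid cells. The rule left out cells with Cd79a, Cd3e or C1qa, 6 that otherwise met it. Low B cell, T cell and macrophage lists were therefore favored by the selection. Itga2b, the platelet integrin that mast cell precursors also carry, was detected in 63 cells at 113 UMIs with a ratio of 16.6, while Gp1bb was at 0. The innate lymphoid list includes Il13 and Il7r, and its markers Klrg1 and Gata3 had 0 and 2 UMIs.

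No doublets were removed beyond the rule. The 16 cells with markers of fibroblasts, endothelium, dendritic, B, T or NK cells had a median of 8348.5 UMIs, against 4123 in the rest, and the part of second cells in the results was not tested. In the 32 cells with no list of another cell type, 199 genes were at least 4-fold higher and 208 at least 4-fold lower. The 25 leading genes were chosen for high ratios, and the lowest of their ratios in the 32 cells was 43.3.

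The cells of libraries 1, 2, 3 and 7 and those of libraries 4, 5 and 6 differed in all 8 listed immediate early genes and in some of the mediator genes. The 87 cells of the first libraries summed to 477415 UMIs and the 11 of the second to 58926. Of 3830 genes with at least 20 UMIs in the 98 cells, 283 (7.39%) were at least 4-fold higher in libraries 1, 2, 3 and 7 with an interval above 1, and 31 (0.809%) were at least 4-fold lower with an interval below 1. Without library 5, which held 7 of the 11 cells, 118 genes were higher and 44 lower. Without the condition on the interval the counts were 508 (13.3%) and 31. The depth of the second libraries limits the genes that can be seen as higher there or absent. Erythroid genes summed to 490400 CPM in the single cell of library 4, to 248363 CPM in the cells of library 5 and to 6364 CPM in those of library 6. With the 4 globin genes left out of the totals the counts were 196 and 48.

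Ccl4 was the clearest case among the mediators. It was at 13423, 8902, 20307 and 17214 CPM in libraries 1, 2, 3 and 7, and at 644, 115 and 0 CPM in libraries 4, 5 and 6. Per cell, the median was 57 UMIs (0 to 372) in the first and 0 (0 to 6) in the second. The ratio was 79.7 (43.3 to 166), 61.8 without globin UMIs and 168 (65.5 to 616) without library 4. The libraries of the 2 kinds did not overlap, and no share over all genes is given for this.

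Ccl3 behaved likewise, with 8716, 6511, 11204 and 10364 CPM against 644, 288 and 737 CPM, a ratio of 18.8 (12.9 to 28.5) that was 12.3 without library 5. Il6 was at 2007, 812, 2611 and 4677 CPM against 107, 115 and 201 CPM, a ratio of 14.8 (7.48 to 34.4). Osm was at 1660.2, 1618, 1567 and 2853 CPM against 0, 57.7 and 67.0 CPM. For each of these genes the libraries did not overlap between the 2 kinds. The genes were picked, and the share of all genes without overlap is not given, so this is a description. Il13 and Ptgs2 had no UMI in libraries 4, 5 and 6.

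All 8 listed immediate early genes were at least 4-fold higher in libraries 1, 2, 3 and 7, against 7.39% of the genes tested. Of these, Nr4a1 fell below 4-fold when library 4, 5 or 6 was left out, with bounds of 3.98-fold, 1.95-fold and 3.53-fold. Egr1 was detected in 81 of 87 cells of libraries 1, 2, 3 and 7, with 1345 UMIs, and in none of the 11 cells of libraries 4, 5 and 6. Against 3 counts in the 11 cells, it was at least 55.3-fold higher. Fos had 637 UMIs in 59 cells and none, at least 26.2-fold higher, and Nfkbia had a ratio of 15.1 (8.78 to 28.3). The ratios were 36.1 for Junb, 19.0 for Zfp36 and 16.03 for Ier2. Dusp1 had 933 UMIs and 1 UMI, a ratio of 115 (20.6 to 4553), and Nr4a1 was at least 4.73-fold higher. Gzmb was at least 15.1-fold higher and Cd69 had a ratio of 30.2 (10.3 to 147). These sizes moved with single libraries. Without library 5, which held most of the UMIs of the 11 cells, the bounds were 22.8-fold for Egr1, 10.8-fold for Fos, 15.8-fold for Dusp1, 1.95-fold for Nr4a1 and 6.23-fold for Gzmb, the ratios of Junb and Ier2 were 20.8 and 6.60, and the ratio of Cd69 was 12.4 (4.24 to 60.4). Without library 6 the ratio of Junb was 62.9 and that of Ier2 108 (19.3 to 4259), from 1 UMI, Nfkbia had a ratio of 29.2 (12.5 to 90.2), and Cd69, with no UMI left, was at least 22.5-fold higher.

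The other cells of the same libraries moved with many of these genes. In the other cells Egr1 was 108-fold higher in libraries 1, 2, 3 and 7 than in libraries 4, 5 and 6, Il6 488-fold, Osm 30.9-fold, Ccl3 16.9-fold and Ccl4 12.02-fold. Of the 283 genes, 166 were also at least 4-fold higher in the other cells. The share of all tested genes that were so in the other cells is not given, so this count is a description. Cd69 and Gzmb did not follow, with ratios of 0.4975 and 0.713 in the other cells. Tissue, handling and library cannot be told apart here.

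The lineage genes were mixed. All 5 genes of the rule, Mcpt8 included, were used to choose the cells in both kinds of library, so their levels are given as a description. Mcpt8 had a ratio of 3.81 (2.20 to 7.21), but 12 of its 13 UMIs in libraries 4, 5 and 6 came from library 5, and without that library the ratio was 20.4 (3.64 to 807). Prss34 had a ratio of 3.95 (1.05 to 33.3) from 64 UMIs and 2 UMIs, both of them in library 5, and without that library it was at least 1.08-fold higher. Ms4a2 had a ratio of 0.676 (0.496 to 0.940), and 0.635 to 0.734 without library 4, 5 or 6. Its interval met 1 without library 1 (0.515 to 1.006), library 5 (0.424 to 1.11) or library 6 (0.510 to 1.09). Fcer1a had a ratio of 0.714 (0.535 to 0.968), which was 0.977 (0.671 to 1.47) without library 6 and 0.785 (0.583 to 1.07) without library 2. Cd200r3 had a ratio of 0.852 (0.638 to 1.16). Cpa3 had a ratio of 0.966 (0.712 to 1.34), which was 0.55 without library 5 and 1.47 without library 6. Gata2, a transcription factor of the lineage, had a ratio of 1.38 (1.08 to 1.78). With the globin genes left out of the totals, Ms4a2 was 0.524 (0.384 to 0.729), Cd200r3 0.661 (0.494 to 0.899) and Fcer1a 0.553 (0.415 to 0.751). Cpa3 was then 0.749 (0.552 to 1.04) and Gata2 1.07 (0.838 to 1.38).

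Mediators were not all alike. Il4 had a ratio of 1.05 (0.503 to 2.53), with all 8 of its UMIs in libraries 4, 5 and 6 coming from the cells of library 5, and without that library it was at least 1.15-fold higher. The ratios of other genes were 0.978 (0.869 to 1.10) for Ccl6, 1.28 (1.06 to 1.55) for Ccl9 and 0.9996 (0.793 to 1.28) for Cd63. With the globin genes left out of the totals they were 0.758 (0.674 to 0.856), 0.993 (0.826 to 1.204) and 0.775 (0.615 to 0.989), so which of them lie near 1 depends on the totals. Without library 5 or 7 the interval of Ccl9 met 1. Ccl6 turned to a ratio of 1.22 (1.05 to 1.43) without library 6. Hgf had a ratio of 0.539 (0.36 to 0.83) and C3ar1 of 0.521 (0.328 to 0.86). Without library 5 they were 0.665 (0.351 to 1.42) and 0.821 (0.364 to 2.29). Without library 1 Hgf was 0.650 (0.427 to 1.02), and without library 2 C3ar1 was 0.620 (0.385 to 1.03). In each of these cases the interval met 1. In the other cells Hgf and C3ar1 were 4.22-fold and 30.6-fold higher in libraries 1, 2, 3 and 7.

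**Figure D4:**
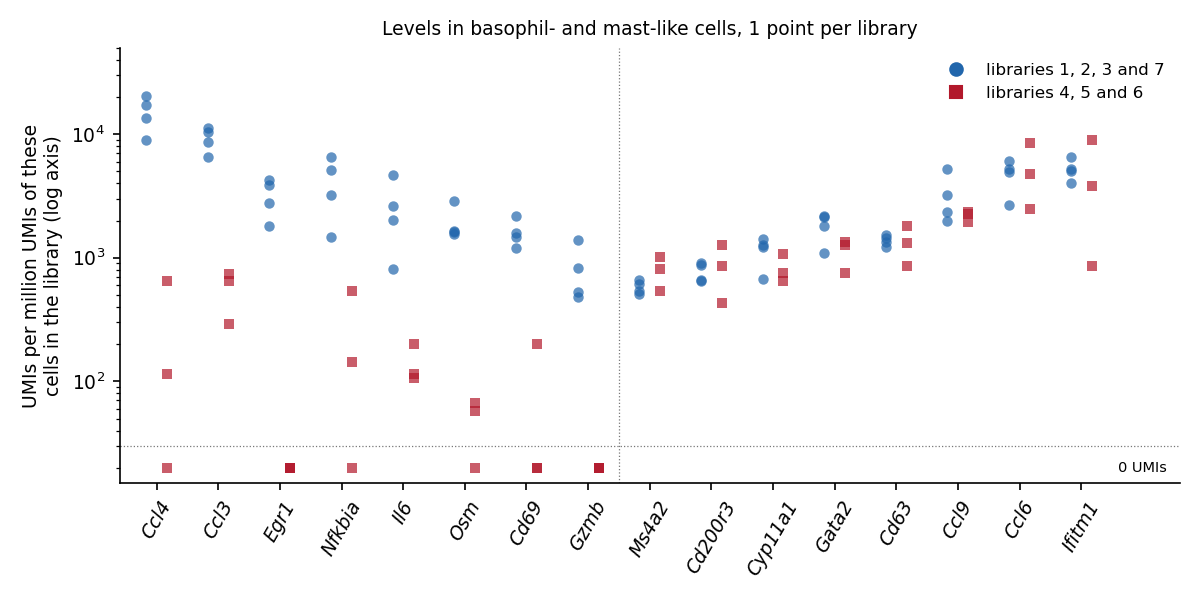
Level of 16 genes (x axis) in CPM of the basophil- and mast-like cells of each library (y axis, log axis), with circles for libraries 1, 2, 3 and 7 and squares for libraries 4, 5 and 6, and values of 0 below the lower dotted line. Left of the vertical line the libraries of the 2 kinds do not overlap, and right of it their ranges meet or lie close. The genes were picked, and no share over all genes is given.

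**Figure D5:**
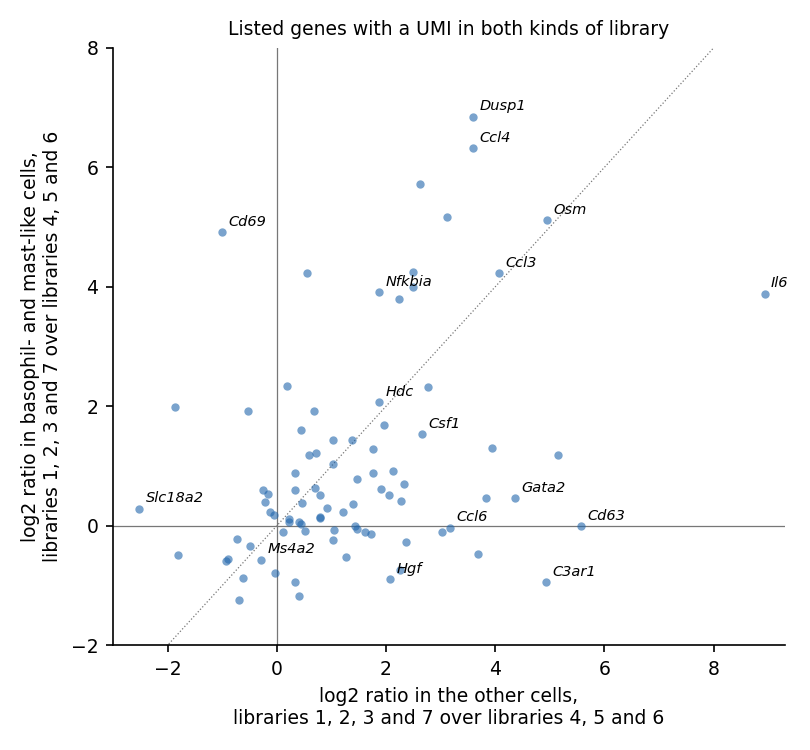
Log2 ratio of the level in libraries 1, 2, 3 and 7 over that in libraries 4, 5 and 6, in the other cells (x axis) and in the basophil- and mast-like cells (y axis), for the 87 listed genes with a UMI in both kinds of library and a ratio in both sets of cells, where the dotted line marks equal ratios. Ccl4 and Cd69 lie above that line, and Cd63, C3ar1 and Il6 lie below it.

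The genes higher in libraries 4, 5 and 6 were led by those of red cells and platelets. Hbb-bs had 6058 UMIs in the 11 cells and none in the 87, and 37.3% of them were in 1 cell. Pf4, a platelet chemokine, had 31 UMIs in 9 of 11 cells and 4 in 3 of 87. In the other cells of libraries 4, 5 and 6 these genes were high as well. Rsad2, an interferon-stimulated gene, was at 424 CPM against 8.38 CPM, a ratio of 0.0197 (0.00499 to 0.0572). Of its 25 UMIs in libraries 4, 5 and 6, 21 were in the 1 cell of library 4, and without that library it was at 80.6 CPM, a ratio of 0.104 (0.0194 to 0.558). In the other cells it was at 428 CPM against 23.0 CPM.

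Cells with and without Mcpt8 were compared within libraries 1, 2, 3 and 7 and without the mast-like cells, a split chosen after the data were seen. There were 54 cells with Mcpt8, at a median of 4530.5 UMIs, and 30 without it, at a median of 3575.5, and the part of depth in the split was not tested. Prss34 was detected in 18.5% of the first and in none of the second, at 186 CPM and 0. All 9 cells of library 7 had Mcpt8, so the pooled ratios mix library with the split, and ratios within libraries 1, 2 and 3 are given instead. Csrp3 was higher with Mcpt8, with a ratio of 2.47 (1.65 to 3.83), and by library it was at 340.3 against 262, 568 against 183 and 961 against 209 CPM in libraries 1, 2 and 3. Csf1 was lower, with a ratio of 0.407 (0.345 to 0.479), against 0.650 with library 7, and values of 951, 876 and 1497 CPM against 2487, 2304 and 2835 CPM in the same libraries. Gzmb had a ratio of 0.506 (0.401 to 0.638), but with library 7 included it was detected in 33.3% of the cells on each side.

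Of the 23 genes compared, Mcpt8 not counted, 7 were lower with Mcpt8 in each of libraries 1, 2 and 3. These were Csf1, Gzmb, Hdc, Gata2, Osm, Cyp11a1 and Slc18a2. Another 3 were higher in each, which were Csrp3, Prss34 and Ms4a2. For Gzmb the direction rests on single cells in libraries 2 and 3. Among cells without Mcpt8, 1 cell of library 3 held 43 Gzmb UMIs, beside 14 and 3 in others. In library 2, 1 such cell held 39, beside 7 in another. Ms4a2, Fcer1a, Cpa3 and Cd200r3 are among the 23 and also chose the cells, so the rule shapes their levels on both sides. The 23 genes were picked, and no share over all genes is given beside these counts, which are a description. Hdc had a ratio of 0.698 (0.608 to 0.801), Gata2 of 0.728 (0.622 to 0.854), Osm of 0.724 (0.621 to 0.845), Cyp11a1 of 0.816 (0.672 to 0.993) and Slc18a2 of 0.59 (0.429 to 0.811). The other 13 did not keep one direction. Ccl3 had a ratio of 0.697 (0.651 to 0.745), with 8254 against 15558 CPM in library 1 but 14141 against 7997 CPM in library 3. Ccl4 had a ratio of 0.897 (0.849 to 0.948) and likewise changed direction in library 3, at 28729 against 10355 CPM. The intervals treat UMIs as independent and take no account of the spread between cells. Il4 had a ratio of 0.731 (0.421 to 1.29).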

How the data were processed

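Single-cell RNA was measured with droplet libraries, and per the labels the cells came from mouse lung. The authors aligned reads with Cell Ranger 3.1.0, the version in the file header, and the submitters' processing notes name STAR and the mm10 genome. They deposited 1 matrix of raw UMI counts for 31053 genes, with 7 libraries marked by barcode number. According to the study, reads were down-sampled between libraries. The labels tie no library number to a group, so groups were not compared, libraries are given by number, and no test was run. The labels give 4 single-cell titles and 9 numbered titles, so the 7 libraries outnumber the single-cell titles. Which samples the libraries hold could not be told, and no sample was analysed under its own title.

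The rule for the cells, the gene lists and the alternatives were chosen with earlier results of these data known. Ratios were standardized to library, with exact 95% Poisson intervals, and shares have exact Clopper-Pearson intervals. Genes with at least 20 UMIs observed or expected were counted, and 4-fold was the limit. The interval condition between libraries, the Mcpt8 comparison, its version without library 7, the version without globin UMIs, the ratios between libraries with 1 library left out and the levels of the comparison cells in libraries 1, 2, 3 and 7 alone were added after the data were seen. A gene at 0 was set to 3 counts, over the cells of the group, for a lower bound. The genes named were the 25 of highest ratio in at least 20% of the cells, the 10 lowest with at least 100 UMIs expected, the 10 at each end of the comparisons between libraries and with the mast-like cells, and members of the lists. Others were picked after their values were seen. Comparison cells were chosen by marker genes. No doublet caller was run. Cells held 1573 to 25420 UMIs.

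The steps were tested on simulated data: in the comparison with the other cells, over 4818 genes, all of the 8-fold changes (100%) and none of the unchanged genes were called, and 95.4% of intervals held the true value. The simulated cells had Poisson counts at the rates of the other cells, with no further spread between cells. The coverage thus holds for counting error alone and does not carry over to genes with most UMIs in 1 cell. Python 3.11.15, numpy 2.4.6, scipy 1.17.1, pandas 2.3.3 and matplotlib 3.10.9 were used, with gene positions from GENCODE (GRCm38). Alternatives changed the mitochondrial limit, the rule, the UMI minimum, the pooling, the depth and the libraries.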

Additional observations from a re-analysis of the deposited data

How the results depend on the processing

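The 25 leading genes were chosen for high ratios and include the 5 genes of the rule. Their lowest ratio under the 14 alternatives was 29.1, at a mitochondrial limit of 5%. Of the 203 ratios followed, 143 moved without cells that hold markers of another cell type, 86 with the 5% limit and 82 without library 1. When averaged over cells, 107 of 204 CPM values moved. Moved includes changes below 1.5-fold, since with libraries 1, 2, 3 and 7 alone 29 ratios moved and 13 changed over 1.5 times. Leaving out 1 library at a time gave 60 to 97 cells, 218 to 261 genes higher and 235 to 358 lower, and between libraries 118 to 308 higher and 21 to 44 lower, with 118 without library 5. Keeping only cells without markers of another cell type left 32 cells, all in libraries 1, 2, 3 and 7, so the comparison between libraries could not be computed. Barcodes within the mean and 2 SD gave 508 lower genes. A minimum of 100 UMIs gave 110 higher and 74 lower, and a minimum of 5 UMIs gave 398 and 865, since other numbers of genes were counted. Without the 4 globin genes 48 genes were lower between libraries. Mcpt2, Cma1, Mcpt4 and Mcpt1 fell to 0 with the 5% limit or without the mast-like cells, Mcpt2 and Mcpt1 fell to 0 without library 1, and Mcpt4 fell to 0 without library 3 or with only the 32 cells. Over libraries left out the ratio of Mcpt2 ran from 0 to 49836, the ratio of Mcpt4 from 0 to 11592 and the ratio of Mcpt1 from 0 to 23603, all over an expectation near 0. No paired analysis was possible because the libraries carry no group. Depth limits libraries 4, 5 and 6 most, with 58926 UMIs in 11 cells.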
